A study of Mus musculus with 7 samples.

Results

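Integrins are the main receptors by which cells hold on to the extracellular matrix. Each receptor pairs an alpha with a beta subunit, and the pair decides which matrix protein is bound: receptors with the beta 1 chain bind laminin, fibronectin or collagen according to their alpha partner, and those with the alpha v chain bind fibronectin and vitronectin. In mouse embryonic stem cells a laminin receptor of alpha 6 and beta 1 is a familiar surface pair. Calreticulin is a chaperone of the endoplasmic reticulum that binds calcium. It is known to help glycoproteins such as integrins fold and has been linked to integrin-mediated adhesion.

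The genes described here are 10 integrin subunits, Itga2, Itga3, Itga5, Itga6, Itga9, Itgav, Itgb1, Itgb3, Itgb4 and Itgb5, out of 18194 genes with a symbol of their own on the array. They were taken by gene symbol, with every probe set that the platform annotation assigns to them. RNA came from D3, an established line of mouse embryonic stem cells: 2 libraries from wild type cells and 5 from cells in which calreticulin had been knocked out, each hybridised to its own Affymetrix Mouse 430 2.0 array. Each library pooled replicate cultures harvested at the same time and stood for a separate biological replicate, per the design text. The labels name no treatment, no feeder layer and no passage, and they do not say whether the knockout libraries came from 1 clone. The p-values describe no more than the spread among these 7 libraries. In a pool of cells, a smaller share of cells with a transcript and less transcript per cell cannot be told apart.

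The values are MAS5 signals on a linear scale, scaled by the authors so that every array has the same trimmed mean, and array medians ran from 92.6 to 124.9. A signal is comparable between libraries for the same probe set but not between probe sets. The targeted gene, Calr, followed the labels, with 12460 and 10840 in wild type libraries and 577 to 1064 in knockout libraries by its brightest probe set. All 10 stem cell markers examined passed the filter on low signal. In knockout libraries 2 and 3, 4 of the 10 had their 2 lowest signals, 2 had their 2 highest, and 4 had neither. Of all 13120 genes that passed the filter, 3416 had their 2 lowest and 3242 their 2 highest signals there. Pou5f1, the core pluripotency factor, had 4891 and 4687 there and 8770 to 11726 in the other 5 libraries, whereas Tdgf1, a co-receptor of Nodal signalling, had 14287 and 15929 there and 10428 to 11867 in the others. These 2 libraries resembled each other (Pearson r = 0.985 across probe sets) more than they resembled any other library (0.843 to 0.902). The fitted differences are therefore given with and without them where both were tested. The knockout libraries are called by the number in their titles.

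The 10 genes have 31 probe sets, of which 21 passed the filter (a mean log2 signal above the 40th percentile), covering 8 genes. Itga2 and Itgb3 had no probe set above it. Over all 7 libraries 0 of the 21 tested probe sets passed the threshold (limma adjusted p under 0.05), where 0.0296% of all 27022 tested probe sets did. At an unadjusted p under 0.05 there were 2 of 21, both higher in the knockout libraries, against 8.42% of the table (5.81% higher). The 2 wild type and 5 knockout signals did not overlap at 2 of the 21 probe sets, against 13.6% of the table. Both were higher in the knockout libraries (7.8% of the table) and 0 were lower (5.85%). These counts were close to the background. What many of the integrin probe sets had in common was where their highest signals lay. With the filter taken over the other 5 libraries, so that no probe set entered through knockout libraries 2 and 3, those libraries were the 2 highest of the 7 at 15 of 21 integrin probe sets, against 25.5% of all probe sets so chosen. With the filter over all 7 libraries the count was 16 of 21, against 26.9%, and includes 1 probe set of Itgav that passed only through the pair. They were the 2 lowest at 0 of 21 (20.9% of the table). Probe sets of 1 gene are not separate observations. Counted by the brightest probe set of each gene, the pair was highest for 6 of 8 genes, against 24.7% of all 13120 tested genes. With the filter over the other 5 libraries it was highest for 6 of 9 genes, against 23.9%. The split into these 2 libraries and the other 5 comes from the data and not from the labels, so no test was made of it. The 10 genes and the gene lists below were also chosen with earlier results of these data known. The shares therefore describe these lists and not integrins at large. Of 8 other integrin subunits that passed the filter, 1 had its 2 highest signals in the pair.

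**Figure D1:**
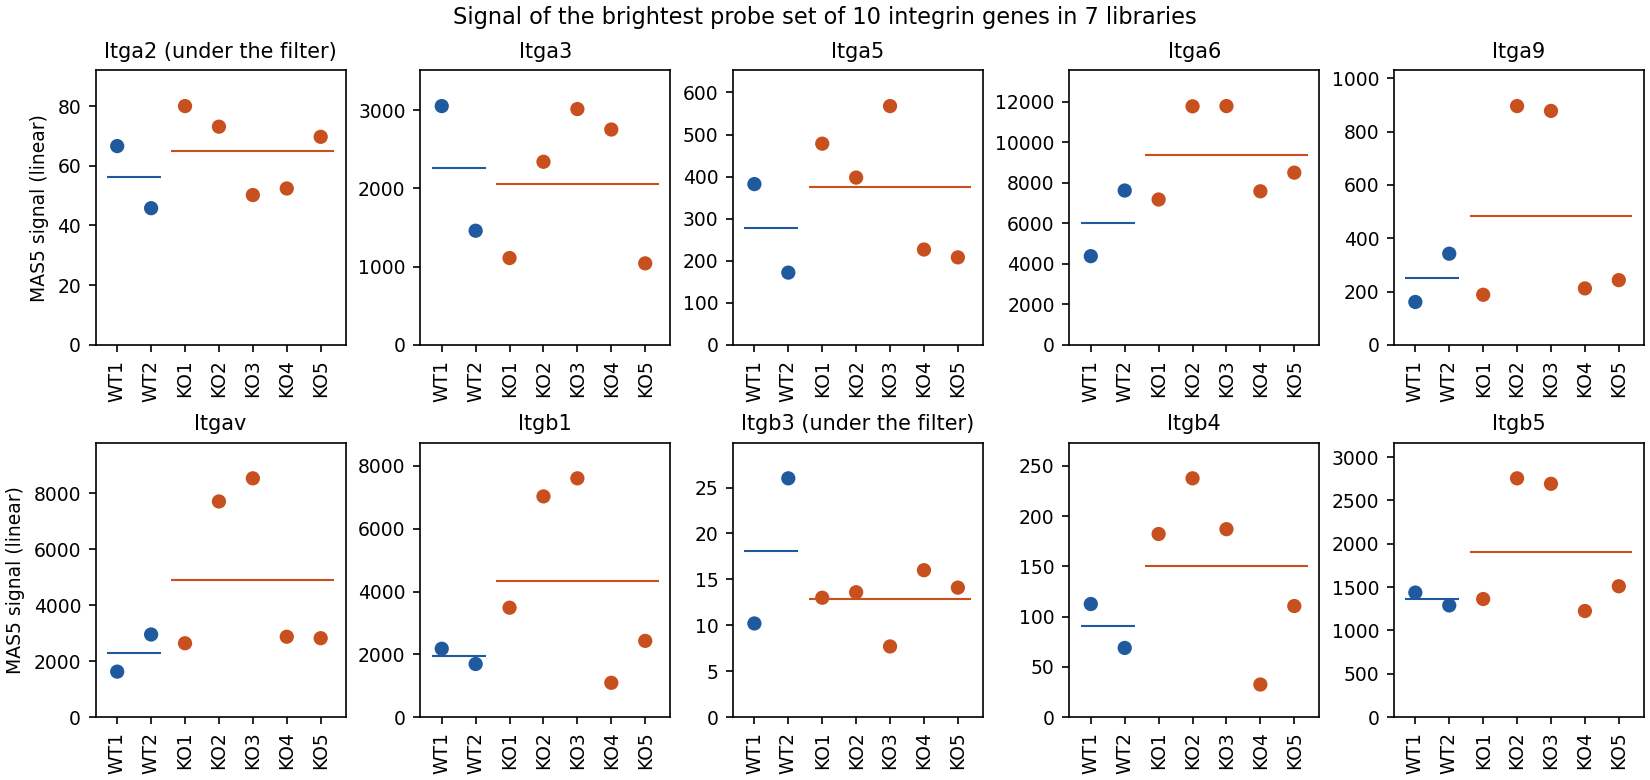
MAS5 signal (linear scale, starting at 0) of the brightest probe set of each of the 10 integrin genes in 2 wild type (WT, blue) and 5 calreticulin knockout (KO, orange) libraries; points are single libraries and lines are group means. Itgb1, Itgav, Itga9, Itgb5, Itga6 and Itgb4 have their 2 highest points in KO2 and KO3, while Itga3 does not; Itga2 and Itgb3 lie under the filter on low signal.

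Itgb1 encodes the beta 1 subunit, which pairs with alpha 2, 3, 5, 6, 9 and v among others, and so is shared by most receptors of this group. Its brightest probe set had signals of 2179 and 1693 in wild type libraries and 3485, 7029, 7604, 1094 and 2429 in knockout libraries 1 to 5. Knockout libraries 2 and 3 stood at 3.78 times the wild type mean when averaged, knockout libraries 1 and 5 lay above both wild type libraries, and knockout library 4 lay below them, so the groups overlapped. The group means were 1936 ± 344 (SD, n = 2) and 4328 ± 2864 (SD, n = 5), and the fitted difference, knockout minus wild type, was 0.84 on the log2(signal + 20.2) scale (SE 0.66, 95% interval -0.65 to 2.33, limma adjusted p = 0.644). Without knockout libraries 2 and 3 the difference was 0.13 (95% interval -0.87 to 1.13, adjusted p = 0.962), with a mean of 2336 ± 1198 (SD, n = 3) in the remaining knockout libraries.

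Itgb1 had 5 further probe sets. The second brightest (2118 and 1500 in wild type; 3129, 5825, 6538, 1154 and 2058 in knockout libraries) gave 0.79 over all libraries and 0.13 without the pair. As with the first, knockout library 3 was highest, followed by libraries 2 and 1, and library 4 was lowest. Of the dimmer ones, 1426920_x_at was the integrin probe set with the lowest unadjusted p (0.014). Its signals were 30.4 and 59.2 in wild type and 91.5, 104, 123, 81.4 and 78.6 in knockout libraries, which did not overlap. Its difference was 0.86 (SE 0.29, lower end of the 95% interval 0.21, limma adjusted p = 0.575), and it was 0.71 (adjusted p = 0.820) without knockout libraries 2 and 3. The ending _x_at marks probes that Affymetrix noted as sharing sequence with other transcripts, so this dim signal need not be Itgb1 alone. The other x-type probe set, 1427771_x_at, did overlap (83.6 and 102 against 37.3 to 335), and its difference was 0.55 over all libraries and -0.18 without the pair. Another 2 probe sets of Itgb1 lay under the filter.

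Itga6 and Itga3 encode the alpha subunits that make laminin receptors with beta 1. Itga6 signals lay mostly on the high side in the knockout libraries, though no probe set passed the threshold. Its brightest probe set had 4379 and 7618 in wild type libraries and 7175, 11771, 11784, 7580 and 8499 in knockout libraries 1 to 5. Wild type library 2 lay within the knockout range and wild type library 1 below all of it. The means were 5998 ± 2290 (SD, n = 2) and 9362 ± 2257 (SD, n = 5), a difference of 0.66 (SE 0.30, 95% interval -0.02 to 1.34, limma adjusted p = 0.575), or 0.42 (-0.17 to 1.01, adjusted p = 0.820) without knockout libraries 2 and 3. Its other probe set had 1059 and 1183 in wild type and 2028, 3459, 3242, 1361 and 1553 in knockout libraries. All 5 knockout signals exceeded both wild type signals there, also when the pair was set aside. The difference was 0.94 (SE 0.40, 95% interval 0.04 to 1.84, unadjusted p = 0.042, limma adjusted p = 0.575), and 0.53 (adjusted p = 0.820) without the pair.

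Itga3 behaved differently. Its brightest probe set had 3051 and 1459 in wild type and 1110, 2339, 3013, 2751 and 1042 in knockout libraries, so high and low signals occurred in each group. The difference was -0.18 (SE 0.50, 95% interval -1.30 to 0.94, limma adjusted p = 0.901), and -0.51 (adjusted p = 0.849) without knockout libraries 2 and 3. The wild type libraries alone differed by more than 1 log2 unit here, which is wider than the fitted difference. A second probe set, 1421997_s_at, read 449 and 105 in wild type and 53.9, 394, 445, 62.1 and 81.7 in knockout libraries. It gave -0.56 (adjusted p = 0.802) over all libraries. Without the pair its 3 remaining knockout signals lay below both wild type signals (-1.504, SE 0.51, 95% interval -2.67 to -0.34, unadjusted p = 0.017, limma adjusted p = 0.820). This was the only integrin probe set of the 21 tested there with an unadjusted p under 0.05. The last probe set of Itga3, 1460305_at, had its 2 highest signals in knockout libraries 2 and 3. It read 216 and 92.6 in wild type and 148, 320, 293, 72.0 and 58.4 in knockout libraries. Its difference was 0.03, and -0.61 without the pair.

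Itgav, Itgb5, Itgb3 and Itga5 encode subunits of receptors that recognise the RGD tripeptide of fibronectin and vitronectin. The brightest Itgav probe set had 1627 and 2955 in wild type libraries and 2641, 7709, 8536, 2875 and 2822 in knockout libraries. Knockout libraries 1, 4 and 5 lay between the 2 wild type signals, whereas libraries 2 and 3 reached 3.55 times the wild type mean when averaged. The difference was 0.95 (SE 0.53, 95% interval -0.24 to 2.15, limma adjusted p = 0.575) and 0.34 (-0.31 to 0.99, adjusted p = 0.844) without them. Of the other Itgav probe sets, 1421198_at passed the filter through knockout libraries 2 and 3 (300 and 311, against 7.9 to 113 elsewhere) and was not tested without them. Another, 1432296_a_at, overlapped between the groups (0.40, adjusted p = 0.609; 0.35 without the pair), and 2 lay under the filter.

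Itgb5, a partner of alpha v, had 1437 and 1289 in wild type libraries and 1363, 2755, 2692, 1225 and 1510 in knockout libraries by its brightest probe set. The mean of knockout libraries 1, 4 and 5, 1366 ± 143 (SD, n = 3), lay close to the wild type mean of 1363 ± 105 (SD, n = 2), and knockout libraries 2 and 3 together stood at 2.00 times it. The difference was 0.40 (SE 0.38, 95% interval -0.46 to 1.25, limma adjusted p = 0.699) over all libraries. Without the pair it was near 0, with an interval of -0.55 to 0.55. The other 3 probe sets of Itgb5 gave 0.30 to 0.64 over all libraries and -0.17 to 0.04 without the pair, and knockout libraries 2 and 3 were highest with each of the 4. The brightest, 1456133_x_at, and 1456195_x_at carry the ending _x_at, so their signals need not be Itgb5 alone. The other Itgb5 probe sets, 1417533_a_at and 1417534_at, do not carry it.

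Itgb3, the other partner of alpha v considered here, was dim on every array, with 7.7 to 26.0 by its brighter probe set, and no difference was measurable. Itga5, the classical fibronectin receptor alpha chain, had 382 and 172 in wild type and 478, 398, 568, 227 and 208 in knockout libraries. Here knockout library 1 ranked above knockout library 2, and the groups overlapped (0.41, SE 0.45, 95% interval -0.60 to 1.42, limma adjusted p = 0.733; 0.13 without knockout libraries 2 and 3). A dimmer tested probe set gave 0.37 (adjusted p = 0.680; 0.30 without the pair), with its highest signals in knockout libraries 1 and 3. The remaining 2 Itga5 probe sets were under the filter.

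Itga9, which pairs with beta 1 and binds tenascin and other ligands, had a sharp step between libraries. Its brightest probe set had 161 and 342 in wild type libraries and 188, 895, 877, 212 and 243 in knockout libraries. Knockout libraries 1, 4 and 5 lay within the wild type range, and libraries 2 and 3 together reached 3.52 times the wild type mean. The second probe set repeated this, with 217 and 251 against 167, 797, 772, 181 and 171, where the 3 low knockout signals lay under both wild type ones. The differences were 0.65 (SE 0.66, 95% interval -0.82 to 2.12, limma adjusted p = 0.714) and 0.43 (adjusted p = 0.806). Without knockout libraries 2 and 3 they took the opposite sign, -0.13 (adjusted p = 0.949) and -0.39 (adjusted p = 0.821). Another probe set, under the filter, had 253 and 243 in knockout libraries 2 and 3 and 6.9 to 39.7 in the others.

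Itgb4, whose subunit joins alpha 6 in the hemidesmosomes of epithelia, has a lone probe set on this array. It had 113 and 68.9 in wild type and 182, 238, 187, 32.5 and 111 in knockout libraries. The lowest and the highest signal were both in knockout libraries, and the difference was 0.46 (SE 0.55, 95% interval -0.78 to 1.701, limma adjusted p = 0.759), or 0.04 (adjusted p = 0.989) without the pair. Itga2, the alpha chain of a collagen receptor, was under the filter with 66.6 and 45.8 in wild type and 50.2 to 80.0 in knockout libraries, and the groups overlapped.

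**Figure D2:**
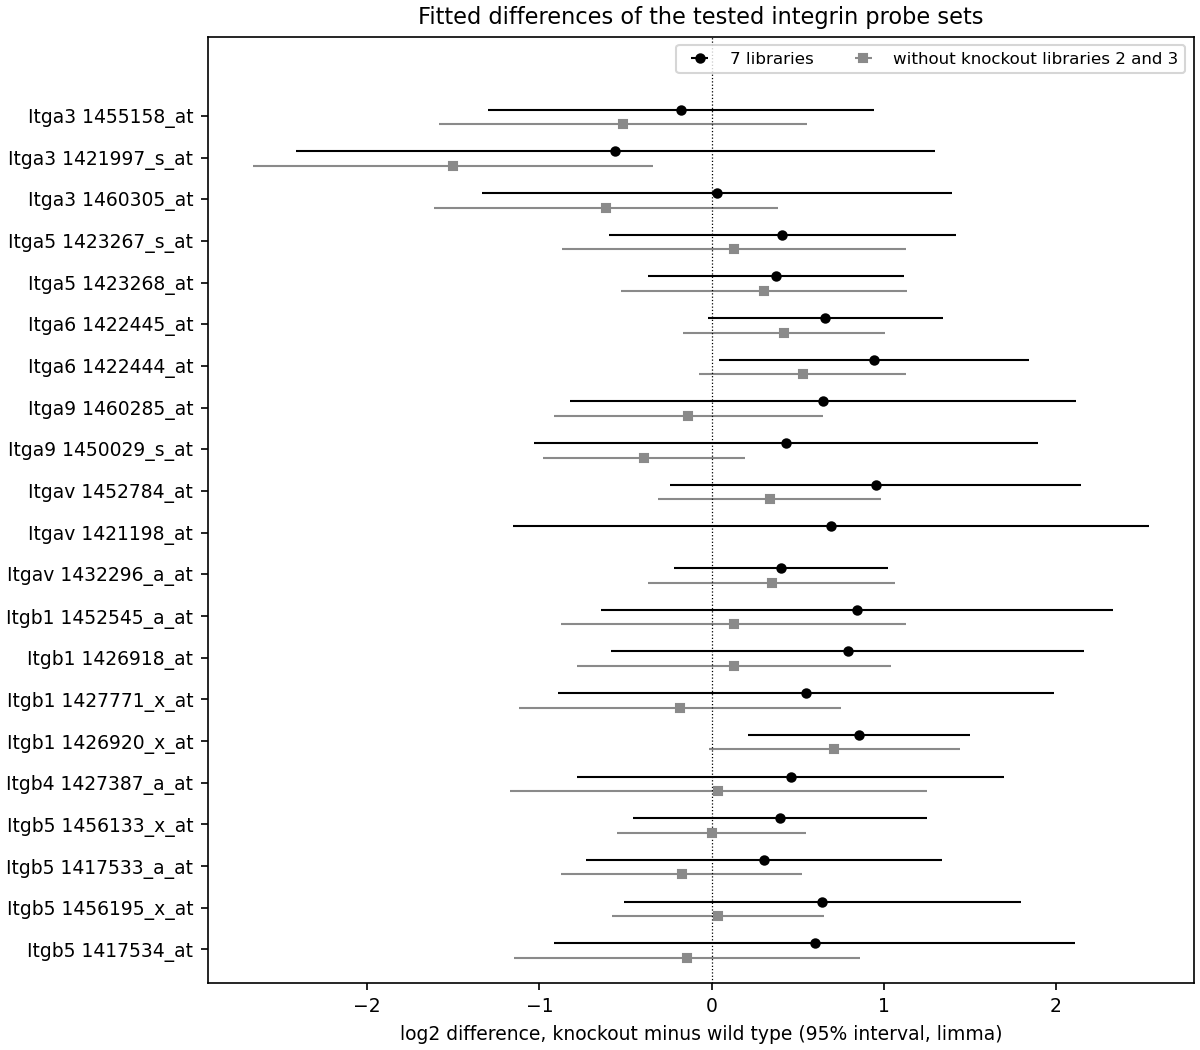
Fitted log2 difference, knockout minus wild type, with its 95% interval from limma, for the 21 tested integrin probe sets over all 7 libraries (black circles) and without knockout libraries 2 and 3 (grey squares; Itgav 1421198_at was not tested there). Over 7 libraries the intervals of Itga6 1422444_at and Itgb1 1426920_x_at lie above 0; without the pair that of Itga3 1421997_s_at lies below 0, and none of these passed after adjustment.

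Over the 21 tested probe sets the differences ran from -0.56 to 0.95, with a median of 0.55, beside a median of 0.07 over all tested probe sets. A difference above 0 was found at 19 of the 21, and at 55.9% of the table. The median of the 21 probe sets tested without knockout libraries 2 and 3, among them Itga2, was 0.04 (12 above 0 and 9 below), beside 0.03 over the table. Of these 21, 0 passed the threshold (0.0185% of the table), 1 had an unadjusted p under 0.05 (5.67%), and 4 did not overlap between the groups (20.3%), 2 higher and 2 lower in the knockout libraries. The intervals were wide in both fits, so values that missed the threshold do not show equal expression. By library, the median over the 8 tested genes stood at 1.13 and 1.05 log2 units above the wild type mean in knockout libraries 2 and 3. It stood at 0.29, -0.15 and 0.21 in knockout libraries 1, 4 and 5, and at 0.13 and -0.13 in the wild type libraries themselves. Knockout libraries 2 and 3, alike across all probe sets (Pearson r = 0.985), differed from each other by a median of 0.11 over the 21 integrin probe sets. The wild type libraries differed by 0.49.

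**Figure D3:**
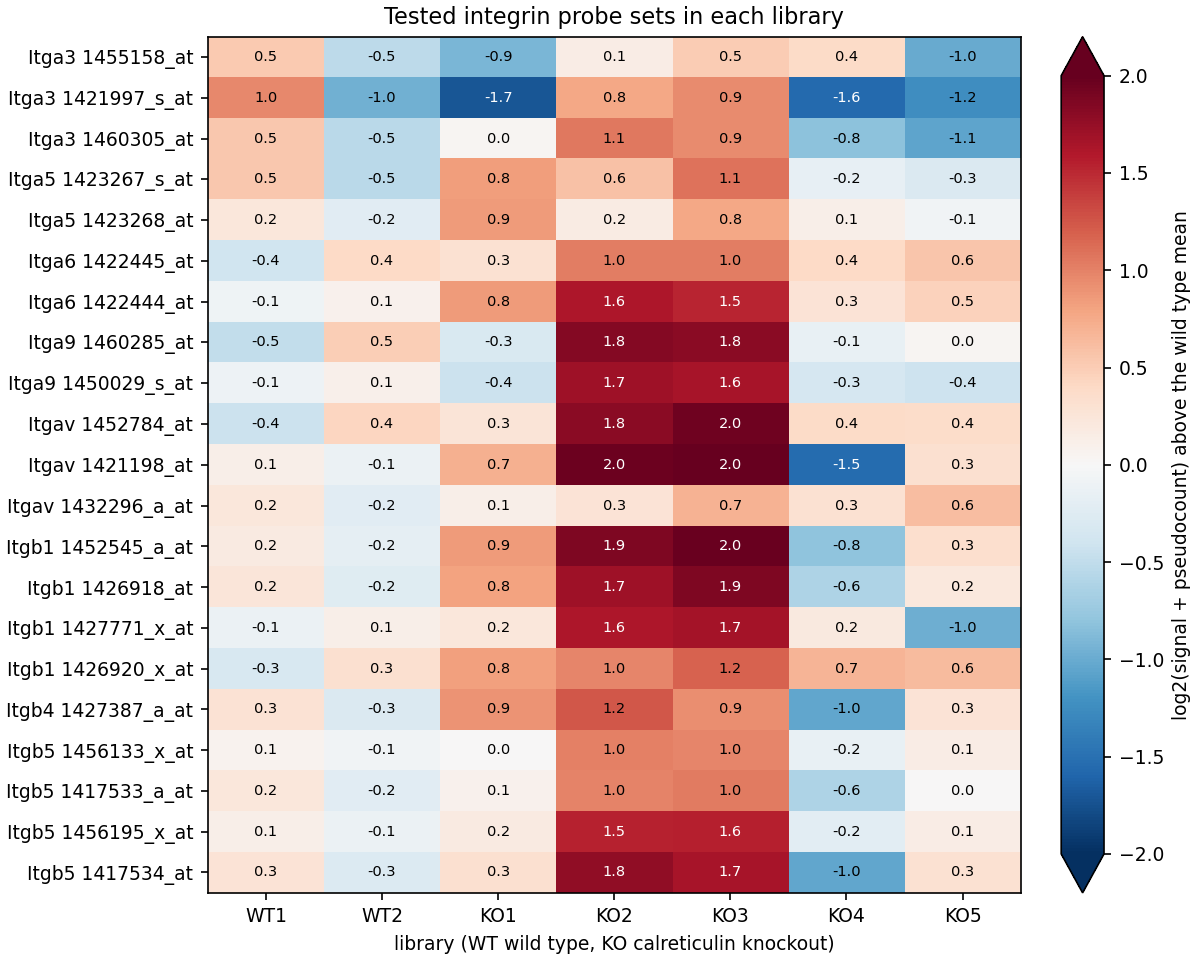
Each tested integrin probe set (rows) in each library (columns, WT wild type and KO calreticulin knockout), as log2(signal + 20.2) minus the mean of the 2 wild type libraries; numbers are the plotted values. Columns KO2 and KO3 are positive throughout, and KO1, KO4 and KO5 hold values of both signs.

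Other measures moved with the same pair of libraries, and their part in the integrin signals was not tested. The ratio of the 3' to the 5' Actb control probe set, which depends on how far labelled RNA extends from its 3' end, was 1.73 and 1.86 in knockout libraries 2 and 3 and 2.75 to 4.23 in the others. The Lys control, a bacterial transcript added to the RNA, gave 13605 and 10441 by its 3' probe set against 4063 to 5314. Knockout library 4, where Itgb1, Itgb4 and Itgb5 were lowest, had the highest 3' to 5' ratios of Gapdh (2.50, with 0.808 to 1.71 in the others) and Lys (2.29, with 1.20 to 2.15). Its Actb ratio, 3.83, lay below that of wild type library 2 (4.23). Of 10 tested fibroblast markers, which feeder cells would carry, 6 were highest in knockout libraries 2 and 3 and 1 was lowest. Of these 6, S100a4, Dcn and Postn passed the filter only through that pair; with the filter taken over the other 5 libraries, 3 of 7 were highest in the pair. The summed signal of the 12 listed markers was 7158 and 6860 there, 5515 and 4574 in wild type libraries, and 1704 to 3044 in knockout libraries 1, 4 and 5. Signals of different probe sets are not comparable, so this sum is weighted to the brighter markers. Acta2 alone held 3802 and 3068 of the wild type sums, so the sum does not measure a share of fibroblasts. Dcn, which encodes the matrix proteoglycan decorin, had 552 and 555 in the pair and 13.4 to 55.6 in the others. Acta2, smooth muscle actin, had 2474 and 2344 in the pair, below the wild type signals of 3802 and 3068, and Twist2, a mesenchymal transcription factor, had 60.5 and 66.6 in the pair and 95.8 to 211 in the others. Thy1 and Col1a1 were neither highest nor lowest in the pair, and Lum and Fap were under the filter. Of 9 tested endoderm markers 2 were highest in the pair, and of 8 tested trophoblast markers 0 were. Of the 2 endoderm markers, Pdgfra passed the filter only through the pair. With the filter over the other 5 libraries, 1 of 8 endoderm and 0 of 9 trophoblast markers were highest there (23.9% of all genes). Over all 13120 tested genes 24.7% were highest in the pair.

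Genes that work with integrins were examined by list, each gene by its brightest probe set, and 0 members of any list passed the threshold over all libraries. Among integrin ligands of the matrix, 16 of 20 tested genes were highest in knockout libraries 2 and 3, beside 24.7% of all 13120 tested genes, and none of the 20 passed the filter through the pair alone (23.9% of genes with the filter over the other 5 libraries). Of the differences, 13 of 20 were positive (median 0.44), beside 6517 of all 13120 tested genes (median -0.005). Nid1, which encodes a basement membrane linker protein, had 1056 and 2653 in wild type and 1893, 7769, 7525, 2289 and 2373 in knockout libraries. Its difference was 1.09 (limma adjusted p = 0.581) over all libraries and 0.37 (adjusted p = 0.861) without the pair. As with Itgav, knockout libraries 2 and 3 were highest and wild type library 1 was lowest. Col1a1, a fibrillar collagen chain, had 324 and 332 against 10.8, 280, 366, 107 and 16.2 (-1.65, adjusted p = 0.579), and knockout library 2 lay below both wild type libraries. The Col1a1 difference was -2.73 (limma adjusted p = 0.611) without the pair. Without the pair 13 of 20 ligand differences were negative (median -0.09), beside 6648 of 12986 genes (median -0.01).

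Surface partners of integrins, such as tetraspanins and membrane proteases, were the list with the largest share of this kind. Of 18 tested genes 16 were highest in knockout libraries 2 and 3, and none of the 18 passed the filter through the pair alone. In this list 16 differences were positive (median 0.29, and -0.18 without the pair), beside 6517 of all 13120 tested genes (median -0.005). Adam10, a membrane protease, had 494 and 1806 in wild type and 1383, 5081, 5287, 2161 and 2383 in knockout libraries (1.57, limma adjusted p = 0.575; 1.005, adjusted p = 0.820, without the pair). Dst, which encodes a linker of hemidesmosomes to keratin filaments, gave 0.96 (adjusted p = 0.575; 0.78 without the pair). Cd9, a tetraspanin found beside beta 1 integrins, was chosen after its values were seen. It had 3953 and 4523 in wild type and 4721 to 14200 in knockout libraries, which did not overlap. The difference was 0.96 (limma adjusted p = 0.575), and 0.45 (adjusted p = 0.820) without the pair.

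The cytoplasmic activators and adaptors did not share the pattern. Of 24 tested genes 3 were highest and 8 lowest in knockout libraries 2 and 3. Of all 13120 tested genes, 3242 were highest and 3416 lowest there. Lims2, 1 of the 3 adaptors, passed the filter only through the pair. With the filter over the other 5 libraries, 2 of 23 adaptors were highest and 8 lowest in the pair. Among the 24 differences 16 were negative (median -0.17), beside 6603 of all 13120 tested genes (median -0.005). Lims1, an adaptor that binds integrin-linked kinase, had 620 and 1177 against 1113, 1971, 1882, 1313 and 1385 (0.79, limma adjusted p = 0.575). Its difference was 0.55 (adjusted p = 0.820) without the pair. Tns3, a tensin that binds beta tails, had 6478 and 10815 against 5087 to 6377, with all knockout signals below both wild type ones (-0.50, adjusted p = 0.575; -0.42 without the pair). Of the other integrin subunits on the array, 8 of 14 passed the filter, 3 of them with a positive difference. Itga8 was the gene of these 8 with its 2 highest signals in knockout libraries 2 and 3. Itgal, the alpha chain of a leukocyte integrin, had 84.7 and 29.6 in wild type against 96.2 to 213 (1.04, limma adjusted p = 0.575). Itga7, a laminin receptor chain of muscle, had 103 and 85.8 against 44.5 to 75.2 (-0.57, adjusted p = 0.575). Without the pair the differences were 1.25 for Itgal and -0.57 for Itga7 (limma adjusted p = 0.820 for each). Both genes were dim. The wild type signals of Itgal and the knockout signals of Itga7 lay under all array medians (92.6 to 124.9). Those of Itgal also lay 0.54 log2 units either side of their own mean.

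**Figure D4:**
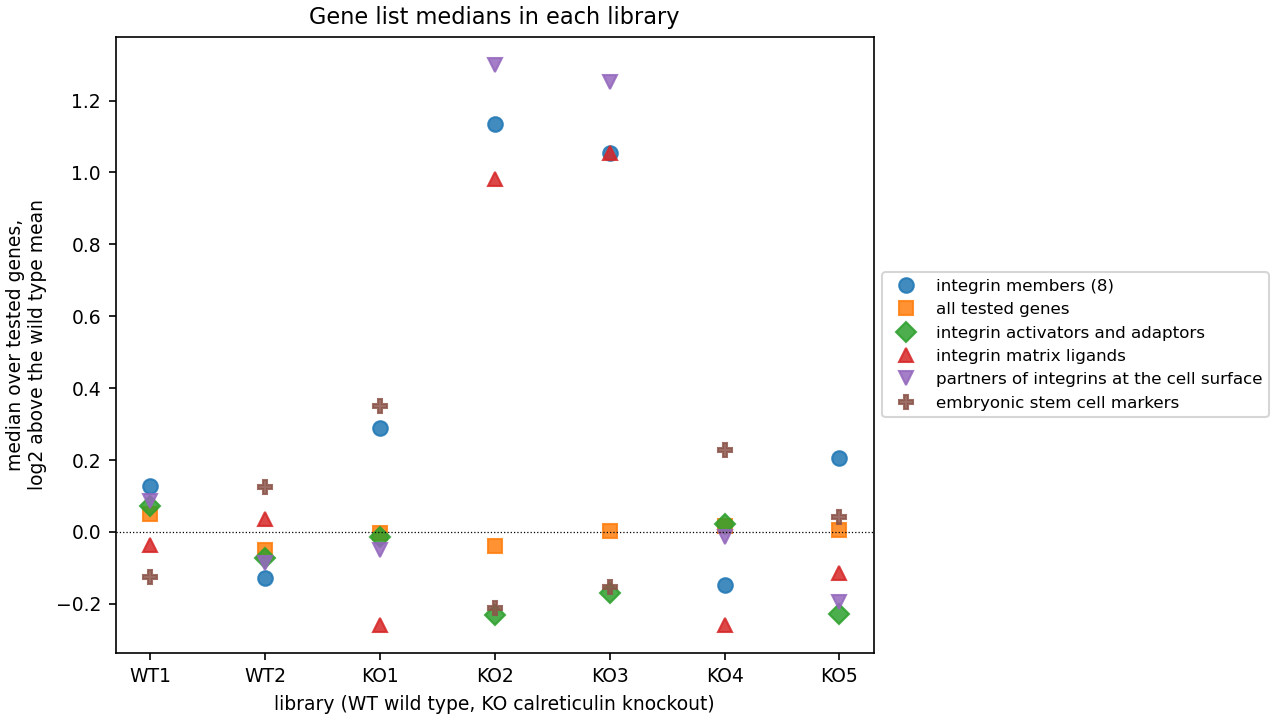
Median over the tested genes of each list, as log2(signal + 20.2) above the wild type mean, in each library (WT wild type, KO calreticulin knockout). Integrin members, matrix ligands and surface partners lie near or above 1 in KO2 and KO3, while adaptors, stem cell markers and all tested genes lie near or below 0 there.

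Likeness to Itgb1 was measured as the root-mean-square distance between log2 profiles over the 7 libraries, each centred on its own mean. Among 13119 other genes the nearest were Ctsf (0.15), Folr1 (0.16), Rabac1 (0.22), Mfsd10 (0.25) and Efna4 (0.25). Each was highest in knockout libraries 2 and 3 and lowest in knockout library 4. Among the 8 tested members, Itgav and Itga9 were nearest to each other (0.24), then Itga6 and Itgb5 (0.33), and Itgb1 was nearest to Itgb4 (0.38). For Itgb1, 53 genes outside the group were closer than Itgb4, so the members are not a tight cluster.

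Promoter sequence is shown for the members whose 2 highest signals by the brightest probe set fell in knockout libraries 2 and 3 (Itga6 and Itgb4, which also did, have no entry). Given are the 250 bases before the start site in RefSeq, assembly GRCm38.p6, written 5′ to 3′ on the gene's strand, which is the plus strand for all 4. Capitals mark the GC box GGGCGG on either strand, the core motif bound by Sp1-type factors. They lie at chr8:128685404-128685653 (Itgb1), chr2:83724147-83724396 (Itgav), chr16:33829415-33829664 (Itgb5) and chr9:118711442-118711691 (Itga9).
Itgb1: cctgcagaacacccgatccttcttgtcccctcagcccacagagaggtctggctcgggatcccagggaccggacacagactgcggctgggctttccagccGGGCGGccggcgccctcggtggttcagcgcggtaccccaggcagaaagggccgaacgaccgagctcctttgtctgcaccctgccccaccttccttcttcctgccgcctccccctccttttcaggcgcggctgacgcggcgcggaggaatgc
Itgav: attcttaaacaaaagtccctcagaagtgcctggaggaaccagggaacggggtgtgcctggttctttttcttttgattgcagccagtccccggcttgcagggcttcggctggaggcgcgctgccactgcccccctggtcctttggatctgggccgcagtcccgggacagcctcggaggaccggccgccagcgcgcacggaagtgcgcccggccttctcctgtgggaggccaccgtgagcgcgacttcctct
Itgb5: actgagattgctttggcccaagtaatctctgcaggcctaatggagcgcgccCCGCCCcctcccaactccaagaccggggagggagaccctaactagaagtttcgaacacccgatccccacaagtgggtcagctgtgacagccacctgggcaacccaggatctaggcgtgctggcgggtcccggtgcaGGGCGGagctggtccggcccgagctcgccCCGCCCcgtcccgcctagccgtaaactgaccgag
Itga9: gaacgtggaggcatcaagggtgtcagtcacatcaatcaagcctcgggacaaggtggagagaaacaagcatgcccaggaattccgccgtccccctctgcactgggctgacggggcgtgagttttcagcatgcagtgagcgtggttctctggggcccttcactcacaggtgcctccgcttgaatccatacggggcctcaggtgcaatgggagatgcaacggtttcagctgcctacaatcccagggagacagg

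A GC box was found once in the Itgb1 window, 151 to 146 bases before the start, and at 3 places in the Itgb5 window, while the Itgav and Itga9 windows have 0. Of 32851 promoter windows of the same length, 32.7% have at least 1. The TATA box TATAAA (12.4% of windows) and the AP-1 motif TGACTCA (4.46% of windows) were in none of the 4, on either strand. GC content was 68.0% for Itgb1, 65.2% for Itgb5, 64.4% for Itgav and 58.4% for Itga9, beside a median of 52.4% over all windows. The 4 genes, alike in having knockout libraries 2 and 3 highest, thus did not share a GC box in these windows. A match or its absence is a description of the letters only.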

How the data were processed

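Affymetrix Mouse 430 2.0 arrays of 7 libraries were analysed. The deposited intensities are MAS5 signals, linear and given for each probe set; the submitters' processing notes name MAS5 but no version. No detection calls were used. Array medians differed by a ratio of 1.35, under the limit of 1.5 for further normalization. The logarithm used was log2(signal + 20.2), with the 20th percentile of the signals as pseudocount, which understates changes of dim probe sets. After 64 control probe sets were set aside, the 27022 of 45101 probe sets above the 40th percentile of mean log2 signal were fitted in limma 3.58.1 (R 4.3.3; lmFit, eBayes with trend, two-sided, Benjamini-Hochberg over all tested probe sets, no covariates). The script was tested on simulated data. Symbols came from the platform annotation (34958 probe sets with 1 symbol, 932 with several, 9211 with none), updated through RefSeq identifiers of GRCm38.p6 for 34754; RefSeq promoter windows matched 7 of the 10 members. Intervals are limma's 95% intervals; the number of arrays limits the precision.

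The members and the 8 gene lists were chosen with earlier results of these data known. Named genes are the members, Calr, any called member of the 4 lists of integrin-related genes or else the 2 with the smallest p, the 5 nearest to Itgb1, and markers; others are said to be chosen after their values were seen. Alternatives were quantile normalization, median centring, other filters and pseudocounts, no trend, array weights, the replicate number as a block, 1 probe set per gene, leaving out libraries, and, chosen after seeing the data, a filter without knockout libraries 2 and 3. Figures were drawn with matplotlib 3.10.9.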

Additional observations from a re-analysis of the deposited data

How the results depend on the processing

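Under all alternatives run, 0 integrin probe sets passed the threshold in limma. The lowest adjusted p of any member was 0.222, without wild type library 2. With both wild type libraries kept, 0 to 7 member probe sets had an unadjusted limma p under 0.05. The 0 came with 1 probe set per gene, where 1052 of all 13120 did. The 7, of 22 tested, came without knockout library 4, where 3270 of all 27022 did. The count over all probe sets, 8, was 5 with no filter, 4 with the filter at the 60th percentile, 2 with 1 probe set per gene, 5 without knockout libraries 2 and 3, 15 with the replicate block, and 0 to 7 when single libraries were left out, the 0 without either wild type library. The integrin probe sets whose groups did not overlap were 2 of 21 (13.6% of the table). They numbered 0 of 8 with 1 probe set per gene (13.9% of 13120 genes) and 4 of 21 without knockout libraries 2 and 3 (20.3%). The count was 1 of 13 with the filter at the 60th percentile. It was 2 to 7 with single knockout libraries left out, the 7 (of 22) without knockout library 4. For the filter at the 60th percentile and the left-out libraries the share over all probe sets was not counted. Fewer libraries make non-overlap easier to reach, so those counts are no result about integrins. The differences of Itga6, Itgav, Itgb1 and Itgb4 kept their sign under all alternatives that tested them, but not their size. With single libraries left out they ranged from 0.26 to 1.06 for Itga6, 0.53 to 1.38 for Itgav and 0.15 to 1.148 for Itga9, in each case lowest without wild type library 1 and highest without wild type library 2, from 0.56 (without knockout library 3) to 1.26 (without knockout library 4) for Itgb1, from 0.17 (without wild type library 2) to 0.83 (without knockout library 4) for Itgb4, and from 0.24 (without knockout library 2) to 0.53 (without knockout library 4) for Itgb5. Without knockout libraries 2 and 3 that of Itgb5 was -0.00027 and that of Itga9 was -0.13. With single libraries left out, the difference of Itga3 ranged from -0.70 to 0.35 (positive when wild type library 1, knockout library 1 or knockout library 5 was absent) and that of Itga5 from -0.12 to 0.95 (negative without wild type library 2). The integrin probe sets with knockout libraries 2 and 3 highest, 16 of 21, were 15 of 21 with the filter taken over the other 5 libraries, an alternative chosen after seeing the data. Centring on array medians moved the median of all probe sets by -0.12 and left 18 of 21 member differences above 0. Knockout libraries 2 and 3 were then highest at 15 of 21, against 20.1% of all probe sets. Quantile normalization left the same counts, against 21.9% of all probe sets with that pair highest. The labels do not say whether same-numbered libraries share more than a number. Their deviations from the group means correlated at 0.11 and -0.01, which cannot decide it, as the deviations of 2 wild type libraries mirror each other. With the replicate block 0 member probe sets were called. The number of arrays, above all the 2 of wild type cells, limits these values.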

Other observations

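Probe sets of the same integrin gene did not always rank the libraries alike. For Itga3, knockout library 4 stood 0.38 log2 units above the wild type mean with 1455158_at (2751) and -1.56 from it with 1421997_s_at (62.1). For Itgav, the same library stood at 0.39 with 1452784_at (2875) and at -1.54 with 1421198_at (7.9), while knockout libraries 2 and 3 were high with both. For Itgb1, knockout library 5 stood at 0.34 with 1452545_a_at (2429) and at -0.97 with 1427771_x_at (37.3). Which transcripts each probe set detects was not analysed here.

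The wild type libraries were less alike than knockout libraries 2 and 3 for these genes. Their largest gap was 1.91 log2 units, at Itga3 1421997_s_at, where the largest gap between knockout libraries 2 and 3 was 0.60, at Itga5 1423268_at. Knockout libraries 2 and 3 were alike across all probe sets too (Pearson r = 0.985), so their small gaps need not be particular to integrins.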
